A study of Danio rerio with 6 samples.

Results

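The genes described here encode the proteins that are specific to the U5 snRNP, a particle of U5 RNA and protein that is part of the spliceosome. They were the genes whose symbol in the count tables was *prpf8*, *eftud2*, *snrnp200*, *prpf6*, *txnl4a*, *snrnp40*, *cd2bp2* or *ddx23*. All 8 symbols were present among 36155 genes, 6 of the 8 had enough counts to be tested, and *snrnp200* and *cd2bp2* had not. RNA was taken at 36 hours post fertilization from zebrafish of the AB* strain after the heads had been cut off for genotyping, so that each library holds pooled tails with the aorta-gonad-mesonephros and the caudal hematopoietic tissue. There were 3 libraries labelled *prpf31*-/- (mutants) and 3 labelled *prpf31*+/+ (siblings), all offspring of *prpf31*+/- parents. The mutants come from a single CRISPR/Cas9 knockout line with a predicted truncation of Prpf31, and no source says whether the 3 pools of a genotype were from different clutches, and p-values then measure only the spread between these pools, which may be technical.

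Pre-mRNA splicing needs U5 joined to the U4/U6 particle as the U4/U6.U5 tri-snRNP. Prpf31 sits on U4 and is known from human cells to hold the tri-snRNP together through contact with PRPF6 of U5. Within U5, Prpf8 lies at the centre of the catalytic core, the GTPase Eftud2 and the helicase Snrnp200 act on it, and the other proteins are adaptors, assembly factors or enzymes that join and leave. In humans, mutations of PRPF8, SNRNP200 and PRPF6 cause retinitis pigmentosa, as those of PRPF31 do, while mutations of EFTUD2 and TXNL4A cause craniofacial syndromes.

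Total counts were 21809870 to 23789933 per library, and 21876 genes were tested, with a median log2 fold change of -0.0048. The targeted gene, *prpf31* on chromosome 16, had 844, 850 and 854 counts in siblings and 475, 576 and 535 in mutants (-0.66 on the log2 scale, SE 0.0842, edgeR adjusted p = 0.00104). None of the U5 genes lies on chromosome 16. The libraries held tail tissue: all 10 posterior Hox genes examined passed the filter on low counts, and 13 genes of the head, eye and brain summed to 31.5 to 35.6 CPM (counts relative to library size after TMM normalization) in siblings and 28.4 to 33.3 in mutants. Head genes were thus low and not absent. Mitochondrial genes took 4.19% to 4.35% of counts in siblings and 4.78% to 5.62% in mutants. Summed marker levels did not overlap between groups for red blood cells (1650 to 2000 CPM in siblings, 1080 to 1330 in mutants), spinal cord and neurons (1210 to 1450 and 1060 to 1150), posterior Hox genes (152 to 185 and 133 to 147) and cycling cell genes (2280 to 2330 and 2150 to 2230). Called lower by edgeR were 3 of 5 tested red blood cell genes, 2 of 12 of spinal cord and neurons, 1 of 10 Hox genes and 1 of 14 cycling cell genes. Over all tested genes 4.49% were called lower. *alas2*, which starts heme synthesis in red cells, had 0 to 3 counts per library. Other genes were near 0 in every library as well, *snrnp200* and *cd2bp2* among them. The cause was not tested, and the counts of *alas2* are not read as a lack of its mRNA in red cells. The part of these differences in the results below was not tested, and in bulk tissue more cells of a type and more RNA per cell cannot be told apart.

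Most, but not all, of the tested U5 genes had more mRNA in *prpf31*-/- tails. *eftud2*, *ddx23*, *prpf8* and *prpf6* rose, by 4.85-, 4.18-, 2.81- and 2.53-fold, whereas *txnl4a* (1.09-fold) and *snrnp40* (1.16-fold) did not pass the test. The value of *ddx23* is for its named entry alone, without an unnamed model near it that is described below. Of the 6 tested genes, 4 were called higher at an adjusted p under 0.05, where 5.58% of all tested genes were (10.1% in either direction), and 0 were called lower by edgeR, where 4.49% of all genes were. None of the 6 was lower at an unadjusted p under 0.05 with edgeR, nor called lower with DESeq2 or limma. All 4 called genes also had a log2 fold change of at least 1. Both a call as higher and such a fold change held for 1.68% of the tested genes. The median log2 fold change of the 6 was 1.42. In the same 4 genes the mutant libraries lay above all sibling libraries, which held for 15.2% of all genes. Over all genes, 1220 were higher and 983 lower, and with upper-quartile factors in place of TMM 1064 were higher and 1227 lower.

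**Figure D1:**
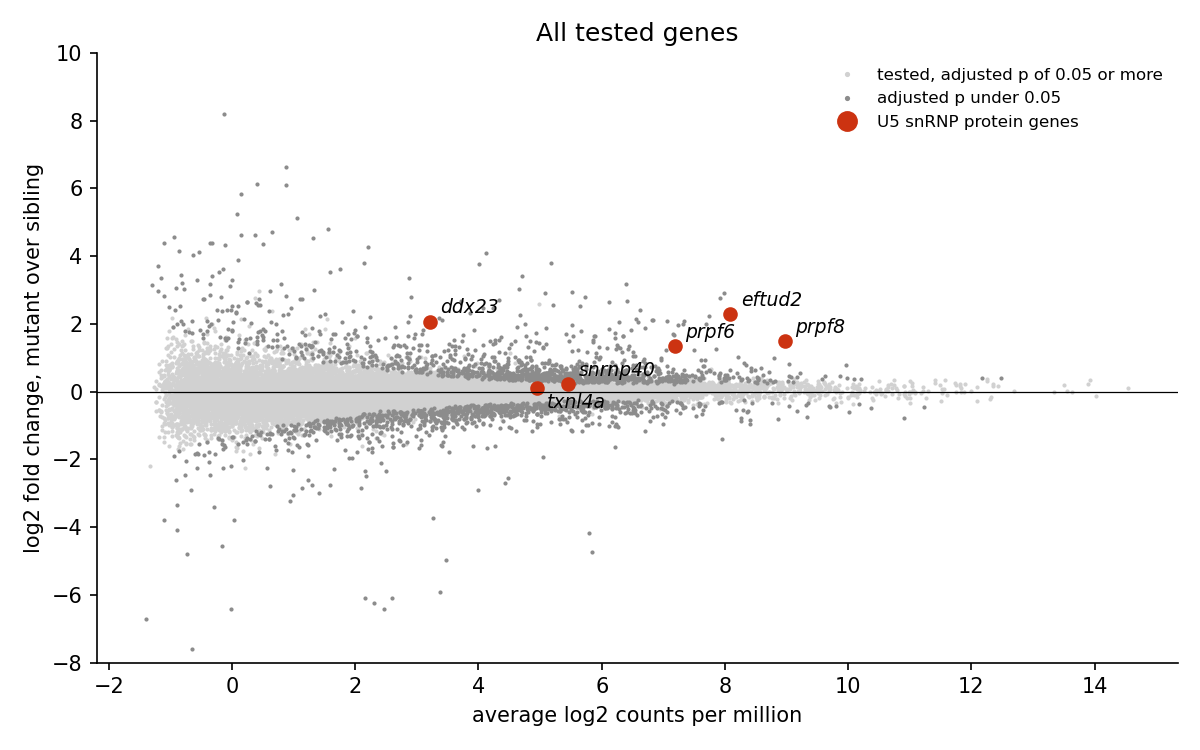
Log2 fold change of mutants over siblings (vertical) against average log2 CPM (horizontal) for all 21876 tested genes, dark grey where the adjusted p was under 0.05. The 6 tested U5 genes are red: 4 lie between 1.34 and 2.28 and *snrnp40* and *txnl4a* lie near 0.

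*prpf8*, the largest and best conserved protein of the spliceosome, was the most highly counted of these genes. It lies on the minus strand of chromosome 15 of GRCz11 from 28248052 to 28262709 (ENSDARG00000026180). It had 274, 258 and 262 CPM in sibling replicates 1 to 3 and 671, 783 and 777 CPM in mutant replicates 1 to 3. Mutant replicate 1 was the lowest mutant library and still lay far above the highest sibling. The means were 265 ± 8.11 and 743 ± 63.2 CPM (SD, n = 3 each). The difference was 1.49 on the log2 scale (SE 0.0833, adjusted p = 2.77e-06). With 13620 to 18108 counts in the mutants, counting error was small beside the spread between libraries.

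*eftud2* encodes the GTPase that resembles the elongation factor of translation and binds Prpf8. The gene lies on the minus strand of chromosome 3 from 16389020 to 16413635 (ENSDARG00000012261). Its levels were 97.4, 93.9 and 87.3 CPM in sibling libraries and 445, 431 and 476 CPM in mutant libraries, and the groups were far apart. This was the largest fold change of the 6 genes, with a log2 value of 2.28 and a 95% interval of 2.10 to 2.46 (adjusted p = 2.16e-07). It ranked 102 among the log2 fold changes of all 21876 tested genes. Genes for relatives of Eftud2 that work in translation differed less. *eef2b*, the most highly counted elongation factor 2 gene, was at 3210 ± 181 CPM in siblings and 2634 ± 103 in mutants (SD, n = 3 each), and its difference of -0.29 on the log2 scale did not pass the test (adjusted p = 0.0518). *eef2l2* was higher by 0.29 (adjusted p = 0.0316) and *eef2a.1* by 0.84 (adjusted p = 0.00237). Of 7 listed relatives of U5 proteins, which also include *efl1*, *ascc3* and *txnl4b*, 2 were called higher and 0 lower by edgeR. At an unadjusted edgeR p under 0.05, 3 of these relatives were lower, and their median log2 fold change was -0.29. Over all tested genes, 5.58% were called higher and 4.49% lower.

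*prpf6* encodes the protein of repeated helices that bridges U5 and U4/U6. It lies on the minus strand of chromosome 23 from 6998633 to 7052412 (ENSDARG00000091367). Siblings had 86.0, 83.7 and 77.5 CPM and mutants 203, 210 and 213 CPM. The mutants differed by little among themselves (209 ± 4.998 CPM, SD, n = 3), and the groups were well apart. On the log2 scale they differed by 1.34 (SE 0.0725, adjusted p = 2.29e-06).

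*ddx23* encodes the DEAD-box helicase that makes room for U6 at the 5′ splice site by displacing U1. It lies on the minus strand of chromosome 23 from 14193547 to 14216506 (ENSDARG00000021945), and was by far the least abundant tested gene of the particle. It had only 82, 91 and 65 counts in siblings and 292, 251 and 441 in mutants, or 3.53 ± 0.584 and 14.8 ± 3.98 CPM (SD, n = 3 each). The mutant libraries varied more than for the other called genes, from 11 to 18.9 CPM, and none overlapped with the siblings. The log2 fold change of 2.06 had a wide 95% interval of 1.57 to 2.56 (adjusted p = 0.000379). With the counts of an unnamed model near *ddx23* added, described below, the log2 fold change was 1.54. Whether reads of *ddx23* were counted in that model was not tested.

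The genes of the 2 small proteins did not pass the test. *txnl4a* encodes a protein with a thioredoxin fold that contacts Prpf8, and lies on the plus strand of chromosome 19 from 20793237 to 20796910 (ENSDARG00000036190). It had 28.6, 29.8 and 30.1 CPM in siblings and 35.2, 28.3 and 32.6 CPM in mutants, and the groups overlapped. Its log2 fold change was 0.12 with a 95% interval of -0.10 to 0.34 (adjusted p = 0.51). *snrnp40*, whose product is a ring of WD40 repeats, lies on the plus strand of the same chromosome from 43004408 to 43016395 (ENSDARG00000023160). It had 42.7, 40.9 and 37.7 CPM in siblings and 48.6, 42.5 and 49.8 CPM in mutants. Mutant replicate 2 was the lowest mutant library for both genes, within the sibling range for *snrnp40* and below it for *txnl4a*. The log2 fold change of *snrnp40* was 0.22 with a 95% interval of 0.01 to 0.42 (unadjusted p = 0.0393, adjusted p = 0.173). These intervals leave room for a small rise of either gene, and their upper ends lie below 1.18, the lowest lower end among the 4 called genes.

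**Figure D2:**
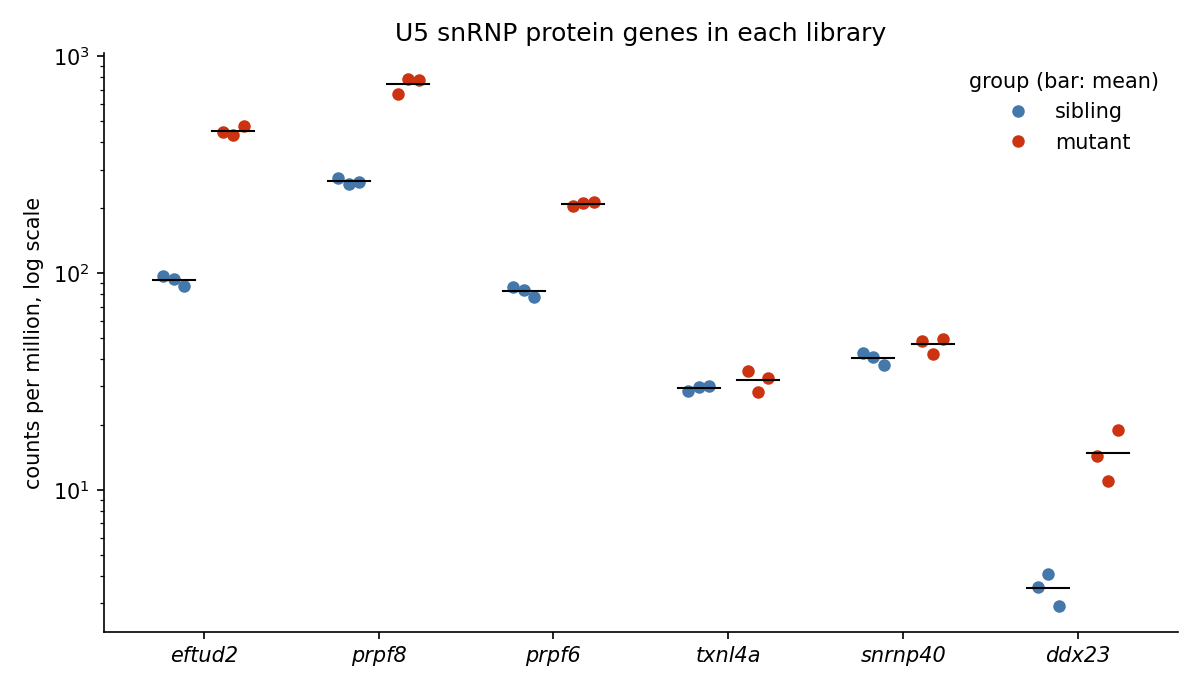
CPM on a log scale (vertical) for each tested U5 gene (horizontal), 1 point per library, siblings blue and mutants red, with the group mean as a bar. The groups are apart for *eftud2*, *prpf8*, *prpf6* and *ddx23* and overlap for *txnl4a* and *snrnp40*.

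Because the genes differ in length, their levels were set beside each other in FPKM (fragments per kilobase of gene length, scaled to an adjusted library total). In siblings 4 genes stood at nearly the same level. *prpf8* was first at 30.1 ± 0.822 FPKM, apart from *snrnp40* at 28.0 ± 1.77 only by touching ranges (29.53 and 29.51 at the nearest libraries), and *txnl4a* (27.4 ± 0.812) and *eftud2* (27.4 ± 1.53) overlapped with *snrnp40* and with each other (SD, n = 3 each). *prpf6* was lower at 16.9 ± 0.918 and *ddx23* lowest at 1.12 ± 0.189 FPKM (SD, n = 3 each). In mutants the order was spread out. *eftud2* came first at 133 ± 6.59 FPKM, followed by *prpf8* at 84.7 ± 7.06, *prpf6* at 42.9 ± 0.939, *snrnp40* at 32.7 ± 2.72, *txnl4a* at 29.9 ± 3.27 and *ddx23* at 4.68 ± 1.25 (SD, n = 3 each). Only *snrnp40* and *txnl4a* still had overlapping ranges between neighbours.

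**Figure D3:**
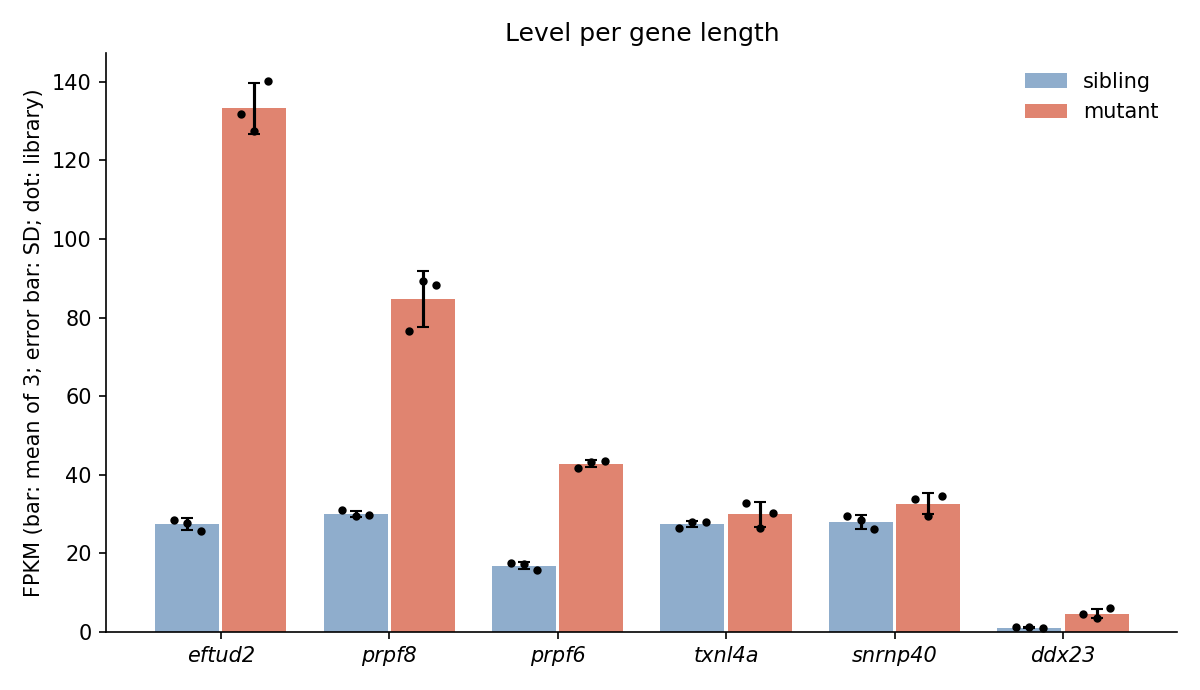
Level per gene length (FPKM, vertical, starting at 0) of the 6 tested U5 genes in siblings (blue) and mutants (red): bars are means of 3 libraries, error bars SD and dots libraries. The sibling means of *eftud2*, *prpf8*, *txnl4a* and *snrnp40* lie between 27.4 and 30.1 FPKM, and the mutant means between 29.9 and 133.

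Ratios between genes of the same library were then compared. The ratio of *eftud2* to *prpf8* in FPKM was 0.922, 0.942 and 0.865 in sibling libraries and 1.72, 1.43 and 1.59 in mutant libraries, so the order of these genes was turned in every library. *eftud2* relative to *txnl4a* went from 1.08, 0.998 and 0.918 to 4.002, 4.82 and 4.62. *txnl4a* relative to *snrnp40* stayed between 0.898 and 1.07 in siblings and between 0.879 and 0.972 in mutants. Some ratios between called genes overlapped between groups as well. *eftud2* relative to *ddx23* was 25.37, 21.42 and 27.85 in siblings and 28.86, 36.56 and 23.46 in mutants. *prpf8* relative to *prpf6* was 1.765, 1.712 and 1.872 in siblings and 1.832, 2.067 and 2.027 in mutants. Not all of the 15 pairs are given here. By two-sided exact permutation tests p = 0.1 for the ratios of *eftud2* to *prpf8* and to *txnl4a*, the smallest that 3 libraries against 3 can give, and p = 0.2 for *txnl4a* to *snrnp40*. Adjusted over the 15 pairs of tested genes these were 0.136 and 0.214, and this design could not reach 0.05. As a share of the summed FPKM of the listed genes, *eftud2* made up 20.9% ± 0.491 in siblings and 40.6% ± 0.591 in mutants, and *txnl4a* 21.0% ± 1.22 and 9.12% ± 1.01 (SD, n = 3 each). Shares add up to a fixed total, so that of *txnl4a* is lower where other genes are higher, and its own FPKM was not lower in mutants on average. The sum itself was 134, 132 and 126 FPKM in siblings and 321, 319 and 343 in mutants, 2.50 times as high on average, and 1.88 times without *eftud2*. *snrnp200* and *cd2bp2* added next to nothing, so the shares and the sum are in effect those of the tested genes. An unnamed model near *snrnp200*, described below, is outside the sum. It was at 3.888 ± 0.8553 FPKM in siblings and 14.05 ± 2.985 in mutants (SD, n = 3 each). A share in mRNA is not a share in the particle, and protein was not measured.

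For *snrnp200* and *cd2bp2* the count tables held next to nothing. *snrnp200* encodes the helicase that unwinds U4 from U6, and *cd2bp2* encodes a GYF domain protein that belongs to free U5 and not to the tri-snRNP. *snrnp200* (ENSDARG00000077536, minus strand of chromosome 8 from 31030613 to 31053872) had 0 counts in each sibling library and 1, 0 and 1 counts in the mutant libraries. *cd2bp2* (ENSDARG00000027357, plus strand of chromosome 3 from 32832042 to 32842383) had 0 counts in all 6 libraries, which allows up to 3 counts per library, or 0.129 to 0.148 CPM, for counting error only. Of 25093 protein-coding genes on numbered chromosomes, 2179 had 0 counts in every library. The gene that overlaps *snrnp200*, *odf2b*, was also at 0, and so were *zgc:153733* and *prr14* on either side of *cd2bp2*. No fold change is given for these genes.

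GRCz11 carries alternate scaffolds, which are second versions of some chromosome regions, and the count tables list unnamed gene models on them. Within 50000 bases of the start of a U5 gene, in the numbering of the same chromosome's alternate scaffolds, there were 11 such models. The following 4 were singled out after their counts were seen, because the domains listed for them in the tables are of the kind found in a U5 protein. The tables give them no gene name, and whether reads of *snrnp200*, *cd2bp2* or *ddx23* were counted there was not tested.

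On an alternate scaffold of chromosome 8, from 31017299 to 31040602, a model is annotated with a DEAD/DEAH box helicase domain, a helicase C-terminal domain, a Sec63 domain and an N-terminal helicase PWI domain. Its length of 7713 bases compares with 7697 for *snrnp200*. This model near *snrnp200* had 619, 573 and 845 counts in siblings and 1884, 3093 and 2301 in mutants. This is 30.3 ± 6.74 and 109 ± 23.1 CPM (SD, n = 3 each), without overlap. The log2 fold change was 1.85, with a 95% interval of 1.46 to 2.24 (adjusted p = 0.000161). The libraries of each group varied more than for *prpf8* or *eftud2*. On an alternate scaffold of chromosome 23, from 14192239 to 14215233, a model near *ddx23* has the pair of helicase domains of a DEAD-box protein. It had 93, 78 and 132 counts in siblings and 140, 247 and 191 in mutants, without overlap in CPM, and was 0.94 higher on the log2 scale (adjusted p = 0.0354). That call was lost without sibling replicate 1 (adjusted p = 0.135) or 2 (0.122), or without mutant replicate 2 (0.09) or 3 (0.0958). It was also lost with the replicate number as a block (0.0706), with limma on log2(FPKM + 1) without a filter (0.103) and where a log2 fold change of at least 1 was required. With its counts added to those of *ddx23*, a choice made after the data were seen, the sums were 175, 169 and 197 in siblings and 432, 498 and 632 in mutants. The log2 fold change of the sum was 1.54 (SE 0.135, adjusted p = 9.15e-05), lower than that of *ddx23* alone and with a smaller error.

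Near *cd2bp2*, models on separate alternate scaffolds of chromosome 3, from 32830973 to 32840784 and from 32826616 to 32836458, each carry a GYF domain. The former had 148, 121 and 168 counts in siblings and 186, 156 and 128 in mutants, with overlap between groups, and a log2 fold change of 0.14 with a 95% interval of -0.34 to 0.62 (adjusted p = 0.746). The latter had 11, 25 and 17 counts in siblings and 13, 7 and 19 in mutants (log2 fold change -0.42, 95% interval -1.47 to 0.63). Neither passed the test, and these intervals do not show that their levels were the same.

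**Figure D4:**
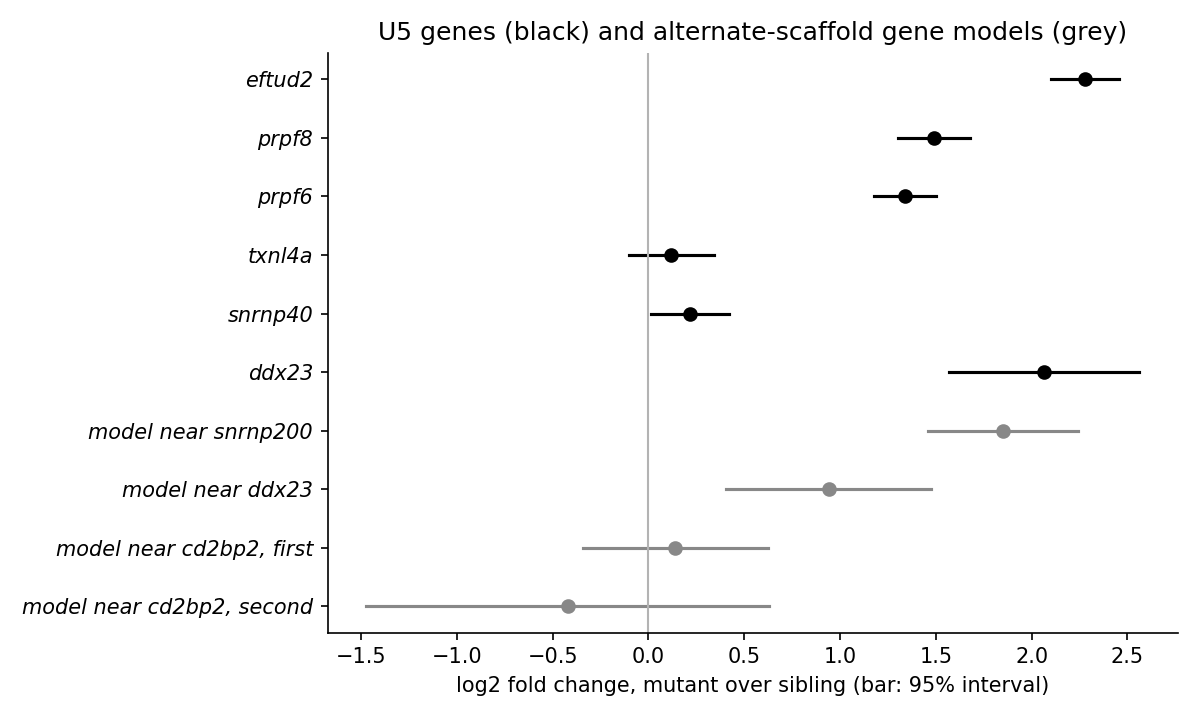
Log2 fold change of mutants over siblings (horizontal) with its 95% interval for the 6 tested U5 genes (black) and 4 unnamed gene models on alternate scaffolds (grey, by the U5 gene they lie near). The intervals of *eftud2*, *prpf8*, *prpf6*, *ddx23* and the model near *snrnp200* lie above 1, and those of *txnl4a* and both models near *cd2bp2* span 0.

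The 4 called genes lie on chromosomes 3, 15 and 23 and have gene lengths of 3139 to 8726 bases, and the 2 that were not called share chromosome 19 and are short, at 1066 and 1431 bases. Shorter genes of other lists below were called higher, such as *snrpe* (598 bases) and *snrpg* (589 bases), while *snu13b* (761 bases) did not pass. *snrpd1*, also on chromosome 19, was called higher by 0.98 on the log2 scale. A link to length or chromosome was not tested. Among the 5 tested neighbours within 3000 bases, none passed the test. For *rilp*, 469 bases from *prpf8*, the log2 value was -0.57 (adjusted p = 0.346), and *birc7*, 1002 bases from *ddx23*, had 1.06 at only 11 to 34 counts (adjusted p = 0.13). Beside *snrnp40*, *nkain1* had -0.43 (adjusted p = 0.0554) and *zcchc17* had 0.10, while *adnp2b* beside *txnl4a* had 0.11. *zcchc17* lies on the other strand, and its start is 52 bases from the start of *snrnp40*. None of the 6 tested genes overlaps another gene listed on its chromosome.

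Other genes of the tri-snRNP also rose, again with exceptions. The lists were chosen with earlier results of these data known and are given as counts. Over all tested genes, 5.58% were called higher and 4.49% lower. Of 15 tested genes of U4/U6 and the tri-snRNP, 8 rose, 6 did not pass and *prpf31* alone fell, with a median log2 fold change of 0.88. *prpf4*, which is among the 8, had only 1, 8 and 2 counts in siblings and 28, 17 and 36 in mutants. *prpf3*, which holds U4 and U6 together and lies on chromosome 16, went from 10.5 ± 1.07 to 81.0 ± 5.70 CPM (SD, n = 3 each). *sart1*, which helps U5 to join, went from 82.7 ± 1.85 to 329 ± 15.9 CPM, and *snu13a*, which binds the loop of U4 RNA that Prpf31 also recognizes, from 14.8 ± 2.21 to 85.1 ± 5.61 CPM (SD, n = 3 each). Its copy *snu13b* differed by 0.27 on the log2 scale and did not pass (adjusted p = 0.222). Of 6 tested genes of the LSm ring, which sits on U6, 5 rose and 1 did not pass, with a median of 1.24, among them *lsm7* (2.92), *lsm6* (1.65) and *lsm4* (0.84). *lsm8*, also called higher, had only 7, 11 and 6 counts in siblings and 39, 36 and 68 in mutants. With a filter of at least 50 counts in 3 libraries, 7 genes of U4/U6 and the tri-snRNP and 4 LSm genes were called higher. The Sm ring is part of U5 itself, as of U1, U2 and U4. All 7 of its tested genes rose, with a median of 1.84, the lowest being 0.86 for *snrpb*. *snrpf* had only 1, 3 and 0 counts in siblings and 19, 25 and 32 in mutants, too few for its fold to be given. *snrpd3* had 0 counts throughout. By contrast *snrpd3l*, which is among the 7 tested genes, had 913 to 940 counts in siblings and 1500 to 1751 in mutants. Its log2 fold change was 0.87 (adjusted p = 0.000541). *snrpe* went from 47.7, 51.0 and 53.1 CPM to 248, 192 and 210 CPM, and *snrpg* from 63.2, 60.2 and 60.6 to 307, 229 and 245 CPM. For *snrpe* and *snrpg* mutant replicate 1 was the highest mutant library, whereas for *prpf8* it was the lowest. The log2 fold change of *snrpd2* was 1.84.

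Genes for factors that help to build U5 did not move together. Of 7 tested genes, 2 rose and 5 did not pass, where 5.58% of all tested genes were called higher. The median log2 fold change of these factors was -0.08. *ruvbl1*, an ATPase of the R2TP chaperone complex, went from 64.5 ± 1.93 to 255 ± 21.3 CPM (SD, n = 3 each), and *ecd*, which binds Prpf8 in human cells, from 0.326 ± 0.0623 to 2.97 ± 0.403 CPM (SD, n = 3 each). The counts of *ecd* were low, at 9, 6 and 7 in siblings and 56, 62 and 80 in mutants. *tssc4*, a U5 assembly factor in human cells, was at 30.5 ± 1.85 and 24.4 ± 2.42 CPM (adjusted p = 0.0747). *znhit2* had 0 counts throughout and *ruvbl2* had 0 or 1 count per library, so neither was tested. Of 14 tested genes of cycling cells, 0 were called higher and 1 lower with edgeR, where 5.58% and 4.49% of all tested genes were. The median was -0.06, and 1 was higher and 3 were lower at an unadjusted edgeR p under 0.05. The summed level of the cycling cell genes was 2280 to 2330 CPM in siblings and 2150 to 2230 in mutants, without overlap.

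**Figure D5:**
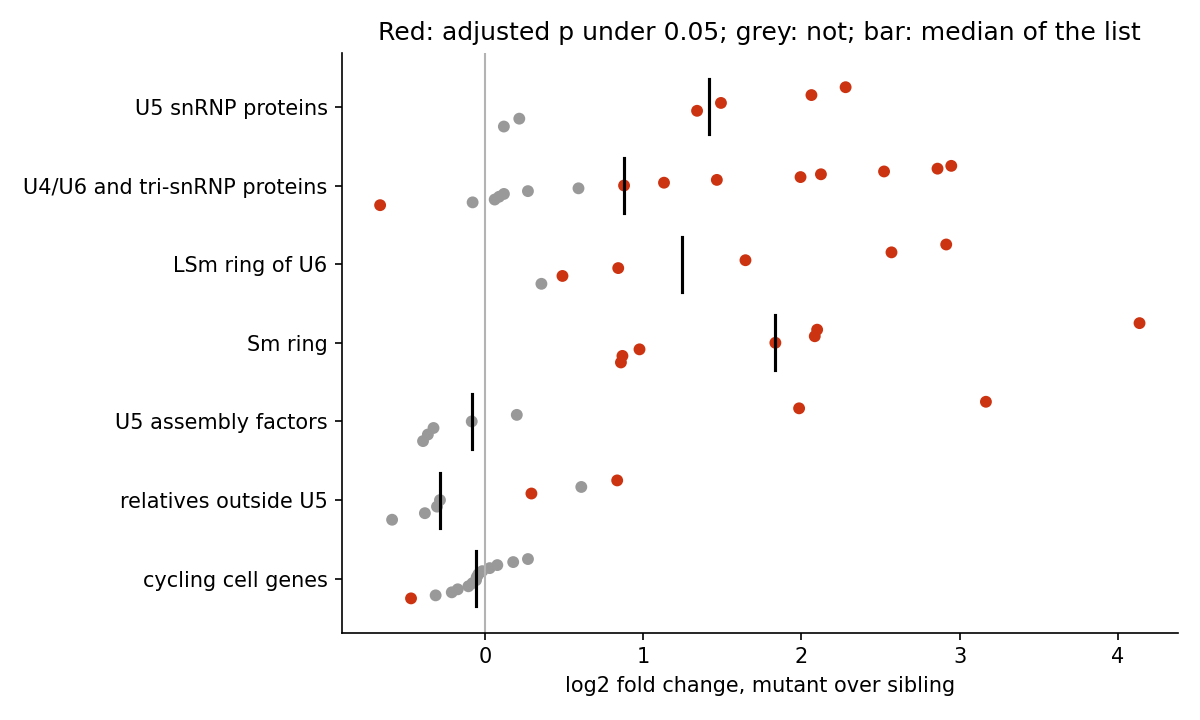
Log2 fold change of mutants over siblings (horizontal) of every tested gene in 7 lists, red where the adjusted p was under 0.05, with a bar at the median of each list. Medians run from 1.84 for the Sm ring and 1.42 for U5 proteins to -0.29 for relatives of U5 proteins (labelled relatives outside U5).

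The genes outside these lists and not listed on chromosome 16 whose log2 CPM followed the mean of the 6 tested U5 genes most closely over the 6 libraries were *ift27* (Pearson r = 0.998), which encodes a small GTPase of intraflagellar transport, *eif4a3* (0.997), the helicase of the exon junction complex, and *gadd45gb.1* (0.997), a stress-inducible gene. *ift27* is listed on a scaffold outside the numbered chromosomes. These 3 genes were the first of 12360 genes with a mean of at least 5 CPM, of which 89 had r over 0.99. With 2 groups apart, such values mostly reflect the difference between groups, and they are a description. *eif4a3* had 139, 144 and 142 CPM in siblings and 270, 255 and 284 in mutants. The fold changes of these 3 genes were smaller than those of the called U5 genes, 1.67, 1.90 and 1.60.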

How the data were processed

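The authors deposited counts and FPKM per gene of 6 libraries made with a NEBNext Ultra kit. The submitters' processing notes name CASAVA 1.8, HISAT2 2.0.5, featureCounts 1.5.0-p3 and GRCz11; the annotation release is not given in the sources used here. The deposited counts are raw whole numbers. The deposited FPKM equal counts per gene length and per a library total of 0.935 to 1.05 times the sum of counts. In each library this factor lay close to the TMM factor (0.9322 to 1.034), so fits on FPKM are not a separate check of the scaling. Strand is not kept by this kit, and antisense partners cannot be told apart.

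Counts were fitted over all genes with edgeR 4.0.16 (R 4.3.3): filterByExpr, TMM factors, the quasi-likelihood test between genotypes as the only term, and Benjamini-Hochberg adjustment at 0.05 over 21876 genes; adjusted p-values in the text are from this fit unless another tool is named. The common biological coefficient of variation was 15.5%. The procedure was tested on simulated data, with effects placed only on well counted genes and the same spread for all genes. That test does not cover genes with few counts, such as *ddx23*, *ecd* or *snrpf*. Members and gene lists were chosen with earlier results of these data known. Named besides the members were *prpf31*, up to 3 genes per spliceosome-related list by smallest adjusted p, and the 3 genes most correlated with the members. *snu13b*, *prpf4*, *lsm8*, *snrpb*, *snrpd1*, *snrpf*, *snrpd3*, *snrpd3l*, *znhit2*, *ruvbl2* and *alas2* were picked with their values in view. So were genes next to the members and models on alternate scaffolds. The alternatives tried were RLE or upper-quartile factors, other filters, DESeq2 1.42.0, the replicate number as a block, limma 3.58.1 on log2(FPKM + 1) and log2(FPKM + 0.1), fits without each library or without chromosome 16, and a required log2 fold change of at least 1. Library totals were 21809870 to 23789933 counts. Figures were drawn with matplotlib 3.10.9.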

Additional observations from a re-analysis of the deposited data

How the results depend on the processing

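The 4 called U5 genes kept their direction and their call, and *txnl4a* and *snrnp40* stayed uncalled and above 0, under all 17 alternatives. The required log2 fold change of at least 1 reuses the main fit, so its outcome for these genes was fixed in advance. Log2 fold changes ran from 2.23 to 2.31 for *eftud2*, 1.45 to 1.55 for *prpf8*, 1.295 to 1.37 for *prpf6*, 1.40 to 2.24 for *ddx23*, 0.17 to 0.28 for *snrnp40* and 0.04 to 0.20 for *txnl4a*. Without 1 library the count of U5 genes was 4 higher and 0 lower each time. The fold of the summed FPKM, 2.50, was 2.92 as a sum of CPM, 1.88 without *eftud2* and 2.45 to 2.54 without 1 library. Over all genes, upper-quartile factors gave 1064 higher and 1227 lower, and 698 were higher and 455 lower with the replicate block. Deviations of same-numbered libraries correlated at -0.167, -0.277 and -0.121, and those of differently numbered libraries at -0.104 to 0.285. These values do not show a pairing by number, and with 3 libraries per group they cannot exclude one. Limma on log2(FPKM + 1) without a filter called 537 lower, and a log2 fold change of at least 1 left 368 higher and 244 lower. Leaving out replicate 1 or 2 of the siblings, or replicate 3 of the mutants, gave 666, 705 and 600 higher and 378, 416 and 332 lower, and over all 6 such fits 600 to 1215 higher and 332 to 990 lower; fewer samples entered these fits. Requiring a log2 fold change of at least 1 left 3 LSm, 4 Sm and 0 relatives of U5 proteins higher and 0 U4/U6 genes lower, and leaving out chromosome 16 removed *prpf31* itself, again with 0 U4/U6 genes lower. Among relatives of U5 proteins 1 was higher with the replicate block, and 1 was lower with upper-quartile factors, DESeq2 or a filter of 50 counts; without 1 library 1 to 2 were higher and 0 to 1 lower. Among assembly factors 1 was lower with upper-quartile factors, and 0 to 1 without 1 library. The log2 fold change of the first model near *cd2bp2*, 0.14, became -0.0784 without mutant replicate 1, and ran from -0.0784 to 0.302 without 1 library. The cause of these shifts was not tested. *ddx23* and the models near *ddx23* and *cd2bp2* had the fewest counts among the U5 genes and models tested; how far depth and how far the spread between pools limits them was not tested.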
